A study of Mus musculus with 24 samples.

Results

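A set of 9 genes that mark medium spiny neurons of the striatum (Penk, Tac1, Ppp1r1b, Drd1, Drd2, Adora2a, Pde10a, Rgs9 and Adcy5) was followed through RNA-seq libraries of mouse cortex, spinal cord and cerebellum. The 9 genes, of 46078 in each count table, were selected on their cortex values in heterozygous against control mice, so every cortex value between genotypes given for them is a description with no test. Heterozygous mice were GFP-PR28 flox/+; Thy1-Cre+ animals, in which Cre under the neuronal Thy1 promoter removes a stop before GFP-PR28, a GFP fusion of the proline-arginine dipeptide repeat protein linked to C9orf72, inserted at the Rosa26 site. Control mice, labelled WT, lacked Thy1-Cre and, per the paper, were littermates that carried the same floxed allele (GFP-PR28 flox/+). Per the paper, mice were male with a C57BL/6 background unless it states otherwise, and heterozygous libraries are labelled OE. Cortex and lumbar spinal cord were taken at 6 months of age and cerebellum at 2 and 5 months, with 3 control and 3 heterozygous libraries for each tissue and age, 24 in all. The transgene is not in the gene tables, so the genotype labels could not be checked by it. Whether cortex and spinal cord libraries with the same number came from the same mouse is not given in the sources used here. Libraries held 12835400 to 25490124 counts on genes, and the 6 cortex libraries 17084506 to 21058595.

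Medium spiny neurons are the GABAergic projection neurons that make up most of the striatum, which lies under the cortex, separated from it by white matter, and borders the lateral ventricle. Cells of the direct pathway carry the dopamine D1 receptor and substance P, and cells of the indirect pathway carry the dopamine D2 receptor, an adenosine receptor and enkephalin. In both, receptors act on adenylyl cyclase 5 through G proteins, cAMP activates protein kinase A, and DARPP-32, PDE10A and RGS9-2 shape the signal. Several of these genes also have weaker expression in cortical neurons, in spinal dorsal horn neurons or in cerebellar neurons.

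Defining genes were read first in each tissue. In cortex libraries, Slc17a7, the vesicular glutamate transporter of cortical excitatory neurons, had 1222 to 1658 CPM (counts scaled to a common library size, with TMM factors from all 24 libraries), and Hoxb8, a gene of the caudal neural axis, had 0 to 0.466 CPM. In spinal cord libraries Hoxb8 had 207 to 261 CPM. Gabra6, a receptor subunit gene of cerebellar granule cells, had 554 to 878 CPM in the 12 cerebellum libraries, 0.0506 to 2.70 CPM in cortex and 0.520 to 18.2 CPM in spinal cord. A pair of cortex libraries stood apart from the others of their group. Control 3 had 1372 CPM of Ttr, the transthyretin gene made by choroid plexus, against 12.4 to 87.5 CPM in the other 5 libraries. Control 1 differed most from its group over all genes, with an SD of log2 deviations of 0.48 against 0.25 to 0.28 in the other 5.

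The sequence just upstream of the start of transcription was available for 6 of the 9 genes (RefSeq, GRCm38.p6, 250 bases before to 50 after the start, 5′ to 3′ on the gene's strand). The start is that of the RefSeq table and differs from the gene bounds given below, which are those of GENCODE: the windows of Rgs9 and Drd2 lie wholly outside those bounds, upstream, and the start of Tac1 and of Drd1 lies inside them. Penk, Ppp1r1b and Adora2a had no entry, and Drd1 and Pde10a had a pair of windows each. The windows of Tac1 (chr6:7554811-7555110, plus strand), Rgs9 (chr11:109298132-109298431, minus strand), Drd1 (chr13:54055609-54055908, minus strand) and Drd2 (chr9:49340153-49340452, plus strand) are shown as examples of the roles among the 9 genes: a neuropeptide, a signalling gene and both dopamine receptors. Capitals mark the motifs searched on both strands: TGACGTCA (the cAMP response element), TGCGTCA (a variant of it), CACGTG (the E-box), TATAAA (the TATA box) and TGACG (a short form held within the first motif and, on the other strand, within the second).
Tac1: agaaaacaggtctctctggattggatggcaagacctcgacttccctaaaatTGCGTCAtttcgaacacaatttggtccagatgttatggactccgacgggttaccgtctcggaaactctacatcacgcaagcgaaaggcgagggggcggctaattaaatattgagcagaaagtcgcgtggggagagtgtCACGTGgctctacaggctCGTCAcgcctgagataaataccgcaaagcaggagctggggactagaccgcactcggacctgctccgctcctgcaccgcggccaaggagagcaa
Rgs9: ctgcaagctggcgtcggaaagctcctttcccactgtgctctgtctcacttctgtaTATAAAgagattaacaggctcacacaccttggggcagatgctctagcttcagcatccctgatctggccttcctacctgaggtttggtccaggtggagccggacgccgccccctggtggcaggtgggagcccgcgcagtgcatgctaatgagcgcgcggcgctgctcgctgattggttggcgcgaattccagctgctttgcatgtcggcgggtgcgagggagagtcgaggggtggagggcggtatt
Drd1: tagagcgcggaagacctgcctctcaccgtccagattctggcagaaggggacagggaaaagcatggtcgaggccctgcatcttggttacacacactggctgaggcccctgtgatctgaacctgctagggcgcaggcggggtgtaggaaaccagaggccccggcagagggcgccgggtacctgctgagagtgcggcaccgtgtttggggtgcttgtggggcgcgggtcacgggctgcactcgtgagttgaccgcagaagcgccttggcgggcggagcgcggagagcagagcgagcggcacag
Drd2: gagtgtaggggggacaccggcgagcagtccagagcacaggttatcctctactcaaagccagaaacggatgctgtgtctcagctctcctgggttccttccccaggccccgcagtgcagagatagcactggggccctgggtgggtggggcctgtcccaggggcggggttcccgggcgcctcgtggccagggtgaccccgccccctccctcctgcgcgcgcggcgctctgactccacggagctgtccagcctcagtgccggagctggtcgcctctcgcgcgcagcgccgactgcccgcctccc
In Tac1, TGCGTCA began 199 bases and CACGTG 61 bases before the start, and TGACG was met on the opposite strand 197 and 43 bases before it, the first of these inside TGCGTCA. In Rgs9, TATAAA began 195 bases before the start. The windows of Drd1, Drd2, Adcy5 and Pde10a held none of the 5 motifs. Of 32851 promoter windows of this length, 1.79% held TGACGTCA, 2.12% TGCGTCA, 7.15% CACGTG, 13.62% TATAAA and 20.81% TGACG. These matches are a description of letters and say nothing about binding.

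The neuropeptide precursors differed between the genotypes in every cortex library. Penk (ENSMUSG00000045573, chr4:4133531-4138819), which encodes the enkephalin precursor of indirect pathway cells, had 48.3, 41.8 and 97.1 CPM in controls 1, 2 and 3, and 292, 184 and 199.6 CPM in heterozygous 1, 2 and 3. Tac1 (ENSMUSG00000061762, chr6:7554879-7565834), the precursor of substance P in direct pathway cells, had 12.7, 8.19 and 16.7 CPM in the controls, and 43.1, 25.0 and 34.0 CPM in the heterozygous libraries. For both genes control 3 was the highest control, heterozygous 1 the highest library, and the groups did not overlap. The log2 fold change, heterozygous over control, was 1.86 (SE 0.31) for Penk and 1.45 (SE 0.27) for Tac1. In bulk tissue, more cells of a type and more RNA per cell cannot be told apart. Penk also overlaps A830012C17Rik on the opposite strand, and the strand setting of the counting is not given in the sources used here, so its counts are uncertain to that extent.

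The receptors of both pathways were each highest in heterozygous 1 and, among the controls, in control 3. Drd1 (ENSMUSG00000021478, chr13:54051183-54055705), the D1 receptor that raises cAMP, had 7.11, 6.79 and 19.1 CPM in controls 1, 2 and 3 and 55.5, 26.9 and 36.7 CPM in heterozygous 1, 2 and 3. Drd2 (ENSMUSG00000032259, chr9:49340627-49408177), the D2 receptor that lowers cAMP, had 0.809, 1.55 and 15.1 CPM in the controls and 37.8, 18.5 and 16.9 CPM in the heterozygous libraries. Controls 1 and 2 held only 14 and 30 counts of Drd2, while control 3 held 298, close to the 288 of heterozygous 3. Adora2a (ENSMUSG00000020178, chr10:75316877-75334784), the adenosine receptor that opposes D2 signalling, had 3.70, 5.34 and 23.9 CPM in the controls and 57.9, 34.2 and 35.1 CPM in the heterozygous libraries. The groups did not overlap for any of the 3 receptors, but the lowest heterozygous library exceeded the highest control by a factor of only 1.41 for Drd1, 1.12 for Drd2 and 1.43 for Adora2a. The log2 fold changes were 1.85 (SE 0.40), 2.06 (SE 0.93) and 1.95 (SE 0.63).

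The signalling genes had counts in every control library. Ppp1r1b (ENSMUSG00000061718, chr11:98348404-98357796), which encodes DARPP-32, an inhibitor of protein phosphatase 1 once protein kinase A has phosphorylated it, had 167, 150.3 and 292 CPM in controls 1, 2 and 3 and 522, 363 and 332 CPM in heterozygous 1, 2 and 3. Pde10a (ENSMUSG00000023868, chr17:8525372-8986648), a phosphodiesterase that breaks down cAMP and cGMP, had 31.2, 63.7 and 149 CPM in the controls and 317, 184 and 229 CPM in the heterozygous libraries. Rgs9 (ENSMUSG00000020599, chr11:109225355-109298129), whose long form RGS9-2 speeds the shut-off of G proteins, had 11.1, 10.2 and 44.6 CPM in the controls and 103, 54.2 and 66.7 CPM in the heterozygous libraries. Control 3 again lay between the other controls and the heterozygous libraries. Adcy5 (ENSMUSG00000022840, chr16:35154877-35305738), the main adenylyl cyclase of the striatum, had 125, 176 and 231 CPM in the controls and 393, 276 and 262 CPM in the heterozygous libraries. The log2 fold changes were 1.01 (SE 0.25) for Ppp1r1b, 1.59 (SE 0.51) for Pde10a, 1.77 (SE 0.57) for Rgs9 and 0.82 (SE 0.22) for Adcy5. Ppp1r1b overlaps 1700003D09Rik on the opposite strand, Pde10a overlaps 3 gene models there, and Adcy5 overlaps Gm25179 on the opposite and Gm49702 on the same strand, so their counts are uncertain to that extent.

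**Figure D1:**
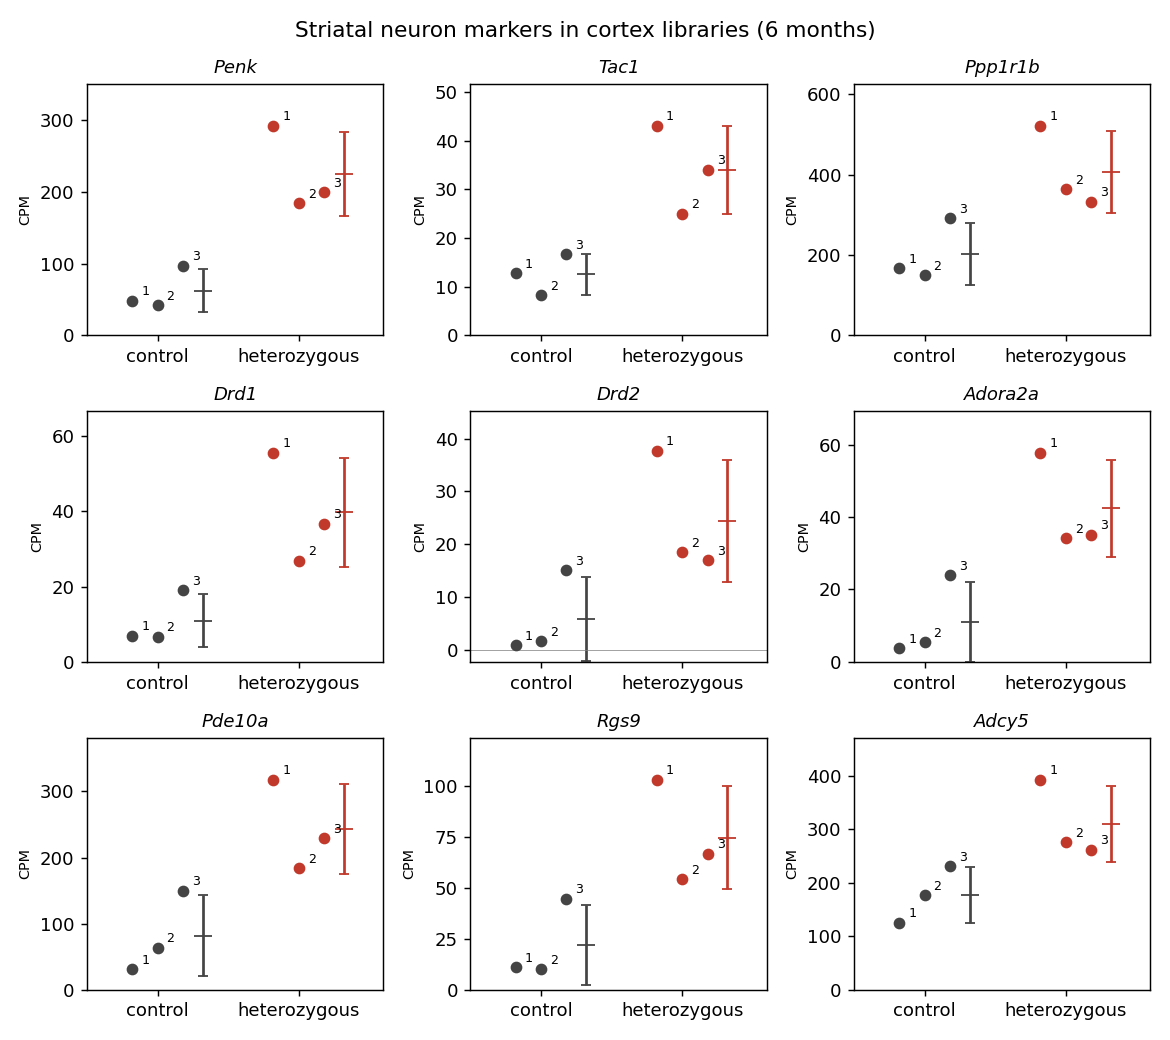
Expression in CPM (linear axis) of each of the 9 genes in the cortex libraries of control (grey) and heterozygous (red) mice, with the library number beside each point and the mean ± SD (n = 3) as a bar. In every panel control 3 is the highest control and heterozygous 1 the highest library.

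Over the 9 genes the log2 fold changes in cortex ran from 0.82 to 2.06 with a median of 1.77, beside a median of 0.00 over all 16744 genes tested. For all 9 genes every heterozygous library was above every control, as it was for 1547 genes (9.24%) in all. The members were chosen by these values, and nothing is read from that count. A gene was called where edgeR gave an adjusted p below 0.05 together with a log2 fold change beyond 0.2 in either direction. Of all genes tested, 6 were called higher (0.0358%) and 0 lower (0%), with an unadjusted p under 0.05 for 1929 genes. The 6 were Mbd6, Kmt2d, Fev, Lmtk3, 2410018L13Rik and Peg10, none of them in a list used here and named after their values were seen. With an offset for length and GC content, 35 genes were called higher and 15 lower, and DESeq2 called 93 higher and 45 lower.

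Control 3 set much of the spread. Without it, the fold changes were 4.35 for Drd2, 3.23 for Adora2a, 2.81 for Rgs9, 2.52 for Drd1, 2.37 for Pde10a, 2.32 for Penk, 1.70 for Tac1, 1.35 for Ppp1r1b and 1.05 for Adcy5 on the log2 scale, and 39 of all genes were called. Without control 1 the median of the 9 was 1.48, and 134 of all genes were called. Without heterozygous 2 or heterozygous 3, 0 genes were called in cortex. These remain descriptions of the contrast on which the genes were selected.

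The highest library of each genotype was shared by the 9 genes and, coming from the same libraries, is given as a description too. All 9 genes had their highest control value in control 3, as did 29.5% of the genes tested, and their highest heterozygous value in heterozygous 1, as did 33.8%. Summed over the 9 genes, expression was 407, 464 and 889 CPM in controls 1, 2 and 3 and 1822, 1166 and 1212 CPM in heterozygous 1, 2 and 3. Among controls the highest library exceeded the lowest by a factor of 18.6 for Drd2, 6.45 for Adora2a, 4.80 for Pde10a and 4.39 for Rgs9, against 1.85 for Adcy5 and 1.94 for Ppp1r1b. Among heterozygous libraries the factor was at most 2.23, for Drd2.

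The balance of the D1 and D2 receptor genes also varied between libraries. The ratio of Drd1 to Drd2 counts, both read in the same library, was 8.79, 4.37 and 1.27 in controls 1, 2 and 3, and 1.47, 1.45 and 2.17 in heterozygous 1, 2 and 3. Controls 1 and 2 had the highest ratios, on 14 and 30 counts of Drd2, and control 3 had the lowest. The ratio of Tac1 to Penk counts was 0.263, 0.196 and 0.172 in the controls and 0.148, 0.136 and 0.171 in the heterozygous libraries. The ratio of Drd1 to Adora2a counts was 1.92, 1.27 and 0.801 in the controls and 0.958, 0.786 and 1.05 in the heterozygous libraries. In each of these ratios, markers of the direct pathway were highest relative to those of the indirect pathway in control 1.

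Genes outside the 9 that also mark medium spiny neurons were read next. They were listed with earlier results of these data known and read in the cortex libraries that chose the 9. Their counts and shares are thus a description and no independent support. Of a list of 30, 29 were tested in cortex, and 0 were called by edgeR, with an unadjusted p under 0.05 for 25, where 1929 of all 16744 genes had one. DESeq2 called 8 of them (Bcl11b, Gng7, Meis2, Oprk1, Rarb, Rasd2, Slc35d3 and Tmem158) and 138 of all genes. All 29 had a log2 fold change above 0, beside 50.6% of all genes tested, and their median was 0.87. Every heterozygous library was above every control for 22 of the 29, beside 9.24% of all genes, and 24 had their highest control value in control 3, beside 29.5%. The most abundant gene of the list, Arpp21, which encodes a cAMP-regulated phosphoprotein also made in cortical neurons, had 422, 426 and 409 CPM in the controls and 568, 475 and 543 CPM in the heterozygous libraries. Six3, a transcription factor gene of striatal neurons named after its values were seen, had 0.578, 0.311 and 4.05 CPM in the controls and 10.4, 5.56 and 6.88 CPM in the heterozygous libraries. Six3 had the largest fold change of the list (2.19, SE 0.69) and Chrm4, which encodes a muscarinic receptor, the smallest (0.07, SE 0.19), both named for these values.

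**Figure D2:**
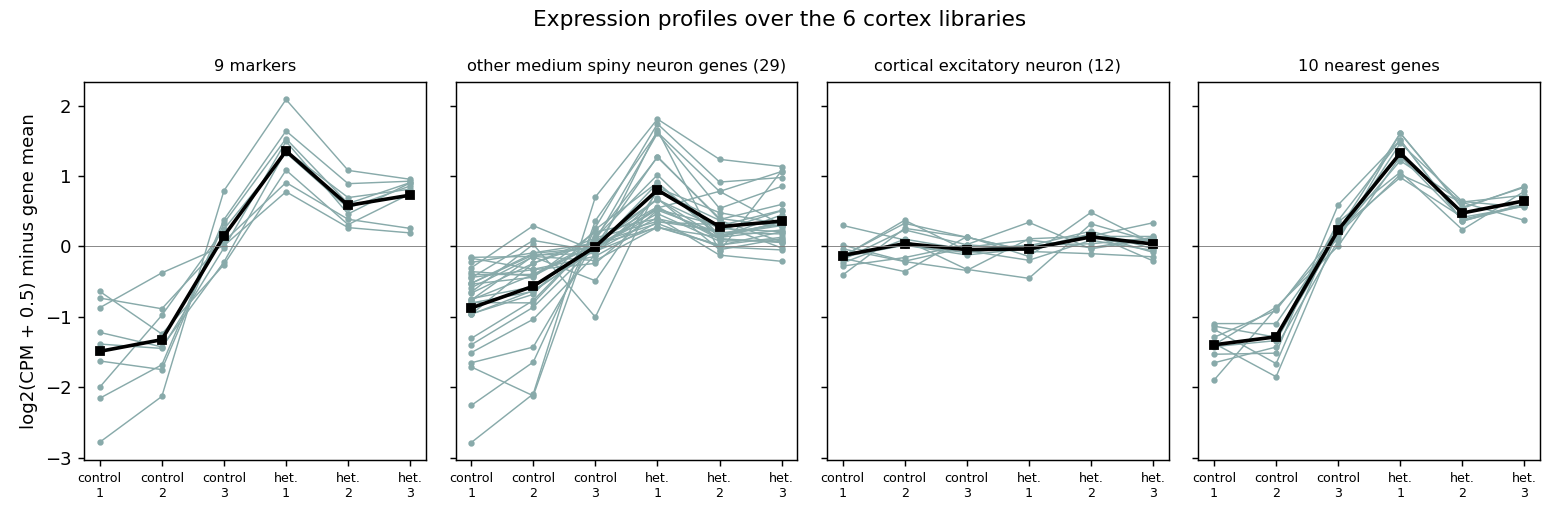
Expression in the 6 cortex libraries as log2(CPM + 0.5) minus each gene's mean, with a thin line per gene and the mean of the panel in black, for the 9 markers, 29 other medium spiny neuron genes, 12 genes of cortical excitatory neurons and the 10 genes nearest to the markers. The mean of the 9 markers was -1.49, -1.32 and 0.15 in controls 1, 2 and 3 and 1.36, 0.58 and 0.73 in heterozygous 1, 2 and 3.

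The list of dopamine and cAMP signalling genes, which shares Gnal, Gng7, Pde1b, Pde7b and Ptpn5 (5 genes) with the list above, held positive and negative fold changes. Of 35 listed, 33 were tested in cortex with a median log2 fold change of 0.02, 18 above and 15 below 0, and 0 were called by edgeR (7 at an unadjusted p under 0.05, and 2, Gng7 and Pde1a, by DESeq2). The most abundant, Prkar1b, a regulatory subunit of protein kinase A, had a log2 fold change of -0.26 (SE 0.12). Of 16 activity-regulated genes, 8 were above and 8 below 0, with 0 called by edgeR or DESeq2 and 4 at an unadjusted p under 0.05. Their most abundant gene, Arc, had 470.5, 442 and 186 CPM in the controls and 365, 75.8 and 109.9 CPM in the heterozygous libraries, so control 3 was the lowest control.

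Markers of other cells and regions were read in the same cortex libraries. Over all lists other than the 9 genes, edgeR called 0 of 163 tested genes, 48 had an unadjusted p under 0.05, and DESeq2 called 12, of which only Aldh1l1 of astrocytes and Chat and Slc5a7 of cholinergic neurons are outside the lists above. The median log2 fold change was 0.13 for cortical excitatory neurons (12 genes, Slc17a7 most abundant), -0.13 for cortical GABA neurons (13 genes, Gad1), -0.18 for a list of neuropeptides (12 genes, Cck; Pdyn is also in the medium spiny neuron list, and Npy, Sst and Vip in that of GABA neurons), -0.02 for hippocampus (6 tested genes, Prox1), -0.05 for thalamus (7 genes, Slc17a6) and 0.32 for olfactory bulb (3 tested genes, Doc2g). It was -0.12 for oligodendrocytes (8 genes, Mbp), -0.16 for astrocytes (6 genes, Slc1a2), -0.30 for microglia (7 genes, Csf1r), 0.09 for endothelial cells (4 genes, Flt1) and 0.38 for cerebellum (6 tested genes, Calb1). Below 0 were 7 of 8 oligodendrocyte, 6 of 6 astrocyte and 7 of 7 microglia genes, beside 8274 of all 16744 genes. Every heterozygous library was below every control for 0, 3 and 2 of them, beside 1906 of all genes. No spinal cord gene of 6 passed the filter in cortex. The summed cortical excitatory markers, with Slc17a7 the largest part, ran from 2161 to 2783 CPM over the 6 libraries.

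The sums of a pair of lists differed between libraries in step with the 9 genes or with control 3. Cholinergic neuron genes, which mark striatal interneurons and basal forebrain cells and of which Isl1 is also in the medium spiny neuron list, had a median of 1.56 over 7 tested genes and summed to 5.90, 8.19 and 12.4 CPM in controls 1, 2 and 3 and 20.9, 14.6 and 18.5 CPM in heterozygous 1, 2 and 3. Of the 7, 6 were above 0, but not Zic4, the most abundant of the list, which had 2.89, 4.15 and 3.79 CPM in the controls and 2.53, 3.38 and 2.94 CPM in the heterozygous libraries (log2 fold change -0.28, SE 0.23), and Ngfr, named after its value was seen, had 0.12 (SE 0.38). In the controls 2, 3 and 1 of the 9 listed genes were at 0 counts. Their defining gene Chat, choline acetyltransferase, had 0.405, 0.777 and 1.42 CPM in the controls and 4.60, 2.70 and 3.76 CPM in the heterozygous libraries. Choroid plexus genes had a median of -1.84 over 4 tested genes of 6 listed and summed to 100.2, 26.4 and 1472 CPM in the controls and 20.9, 65.1 and 32.0 CPM in the heterozygous libraries, Ttr being the most abundant and none at 0 counts. Control 3, the high library for choroid plexus, was also the control with the highest values of the 9 genes. The part of cholinergic or choroid plexus cells in the values of the 9 genes was not tested.

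**Figure D3:**
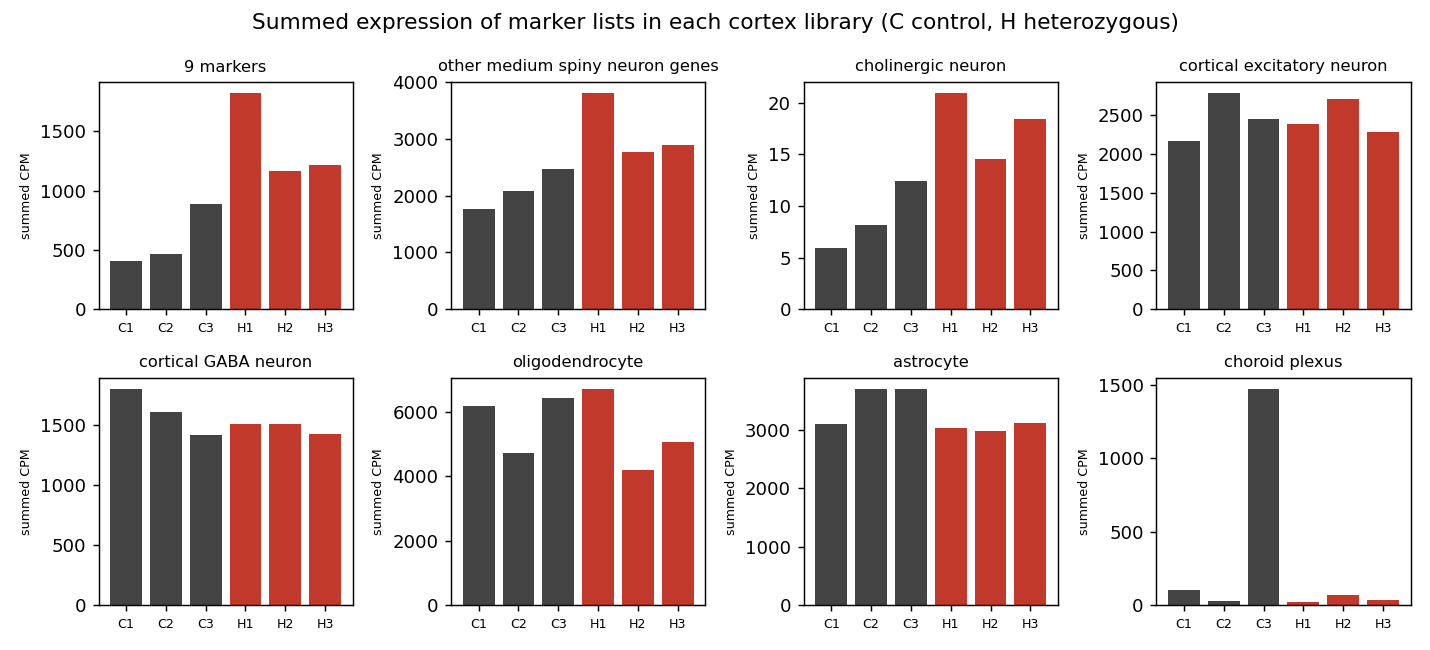
Summed expression in CPM (linear axes from 0) of 8 marker lists in each cortex library of control (C, grey) and heterozygous (H, red) mice. The 9 markers sum to 407 to 889 CPM in controls and 1166 to 1822 CPM in heterozygous libraries, while the choroid plexus sum is 1472 CPM in control 3.

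The genes whose profile over the 6 cortex libraries lay closest to the mean profile of the 9 were found by the root-mean-square distance of centred log2(CPM + 0.5) values. Among the 10 nearest were Ecel1 (distance 0.07), Gpr6 (0.14), Serpina9 (0.23), Six3os1 (0.24), Rxrg (0.25), Slc10a4 (0.25), Cd4 (0.26) and Kcna5 (0.26), where the median over all 16744 genes was 1.07. Some of these were near 0 in controls 1 and 2, with 0.116 and 0.0518 CPM of Slc10a4, 0.347 and 0.104 of Six3os1 and 0.405 and 0.415 of Serpina9. There the 0.5 CPM added before the log sets much of the distance. Gpr6, a receptor gene of indirect pathway cells, had 1.79, 2.18 and 7.13 CPM in the controls and 21.5, 9.98 and 12.5 CPM in the heterozygous libraries. Of the 9 themselves, Drd1 (0.14), Penk (0.20) and Rgs9 (0.22) lay closest to their mean, and Drd2 (0.77) and Adcy5 (0.58) farthest. Over all 12 cortex and spinal cord libraries, 2 of the 10 genes, Serpina9 and Six3os1, were again among the 10 nearest.

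Levels of different genes were compared per kb of exon, and those in cerebellum come from a separate count table scaled together with the other. In control cortex, Ppp1r1b had the highest level (69.4 ± 26.4 CPM per kb, SD, n = 3), then Penk (38.2 ± 18.5), Adcy5 (24.7 ± 7.36) and Pde10a (6.34 ± 4.76). Tac1, Adora2a, Rgs9, Drd1 and Drd2 followed between 3.69 and 2.28 CPM per kb, and of all neighbours in this order only Adcy5 and Pde10a differed by more than the sum of their SDs. In heterozygous cortex Ppp1r1b (139 ± 34.8) and Penk (138 ± 35.9) were level, and Adcy5 (43.2 ± 10.0) and Pde10a (19.0 ± 5.28) came next. In that order only the steps from Penk to Adcy5 and from Adcy5 to Pde10a exceeded the summed SDs.

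Spinal cord and cerebellum had other orders. In control spinal cord Penk led with 129 ± 25.8 CPM per kb, followed by Ppp1r1b (22.8 ± 0.942), Adcy5 (18.7 ± 1.11), Tac1 (8.47 ± 1.70), Drd2 (4.91 ± 0.992) and Pde10a (3.74 ± 0.205), and Rgs9, Adora2a and Drd1 were lowest, Drd1 at 0.329 ± 0.0611. Only Drd2 and Pde10a were neighbours within the sum of their SDs there. In control cerebellum at 5 months Penk (68.9 ± 0.514) and Ppp1r1b (59.5 ± 1.74) were followed by Adcy5 (9.96 ± 0.446) and Pde10a (7.77 ± 1.11). The other 5 genes were below 1 CPM per kb in that group, with 3 to 10 counts of Tac1, 3 to 6 of Drd1 and 7 to 12 of Drd2 in each library. Adora2a and Rgs9, and Tac1 and Drd1, were neighbours within the sum of their SDs.

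**Figure D4:**
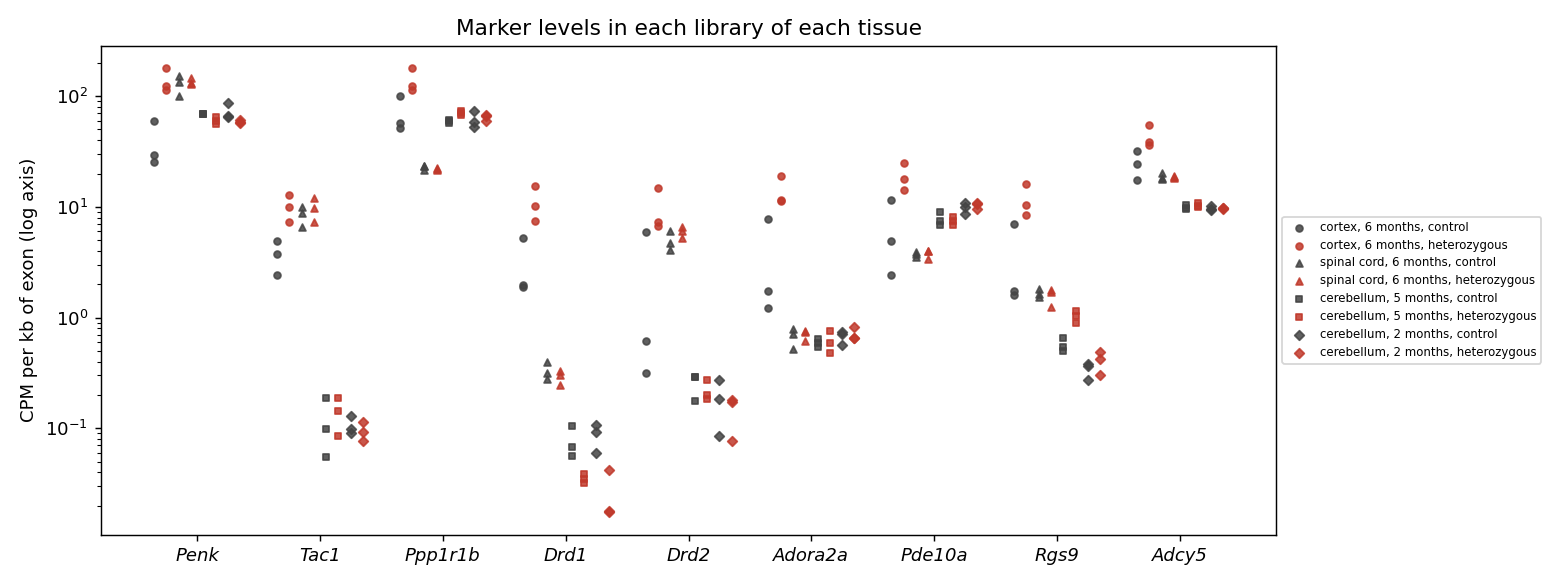
Level of each gene in CPM per kb of exon (log axis) in each library of each tissue, control in grey and heterozygous in red, with a marker shape for each tissue and age. Control cortex libraries spread most for Drd2, Adora2a, Pde10a and Rgs9, and in cerebellum Tac1, Drd1 and Drd2 rest on 1 to 12 counts a library.

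Control spinal cord was also set against control cortex. The control cortex libraries were among those whose values chose the 9 genes, so the fold changes, spinal cord over cortex, are a description with no test. Drd1 (log2 fold change -3.19, SE 0.44), Adora2a (-2.39, SE 0.65) and Ppp1r1b (-1.59, SE 0.23) were lower in every spinal cord library than in any cortex library, as were 27.8% of the 17416 genes. Penk (1.76, SE 0.30) and Tac1 (1.21, SE 0.25), peptides that are also made in dorsal horn neurons, were higher in every spinal cord library, as were 27% of all genes. The tissues overlapped for Drd2 (1.11, SE 0.80), Rgs9 (-1.04, SE 0.51), Pde10a (-0.75, SE 0.44) and Adcy5 (-0.38, SE 0.19).

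Control cortex 3 moved several of these values. Without it the fold change was 3.40 for Drd2, 0.02 for Rgs9, 0.04 for Pde10a, -1.11 for Adora2a, -2.52 for Drd1 and -0.14 for Adcy5. Over the 11 alternatives it ran from 1.53 to 2.24 for Penk, 0.97 to 1.48 for Tac1 and -1.78 to -1.23 for Ppp1r1b. Of the other medium spiny neuron genes, 6 of 28 tested were called higher and 15 lower in spinal cord by edgeR, and of the dopamine and cAMP signalling genes 5 and 18 of 33, where 20.8% of all genes were called higher and 20.6% lower.

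In spinal cord, heterozygous mice were compared with controls in a contrast that the choice of genes did not use, although the mice may be those of the cortex libraries. None of the 9 genes was called by edgeR or by DESeq2, none had an unadjusted p under 0.05 in edgeR, and edgeR's adjusted p-values were 0.822 to 0.975, where 0.108% of 17522 genes were called (19 genes, but 643 without heterozygous 1 and at most 1 without any other single library). Penk had 164, 219 and 247 CPM in the controls and 216, 239.8 and 209 CPM in the heterozygous libraries. Drd2, the gene with the lowest p, had 10.3, 11.9 and 15.3 CPM in the controls and 15.3, 13.3 and 16.9 CPM in the heterozygous libraries (log2 fold change 0.28, SE 0.15, edgeR adjusted p = 0.822). The groups overlapped for both genes. The fold changes of the 9 ran from -0.17 for Drd1, on 21 to 31 counts a library, to 0.28 for Drd2, with a median of 0.03. These fold changes and those in cortex were not tested against each other.

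In cerebellum at 5 months, 7 of the 9 genes passed the filter, Tac1 and Drd1 being too low, and 2 were called higher by edgeR and by DESeq2. Rgs9 had 3.44, 4.21 and 3.16 CPM in the controls and 7.37, 5.75 and 6.57 CPM in the heterozygous libraries, from 51 to 66 and from 90 to 113 counts. All 3 heterozygous libraries were above all controls, as for 1597 of 16481 genes, with a log2 fold change of 0.89 (SE 0.17, edgeR adjusted p = 0.00320). Ppp1r1b had 179, 169 and 176 CPM in the controls and 199, 205 and 216 CPM in the heterozygous libraries, higher in 3 of 3, with a log2 fold change of 0.27 (SE 0.05, edgeR adjusted p = 0.000958). Among the 16481 genes tested, edgeR called 2.37% higher and 2.72% lower, and DESeq2 called 261 genes higher and 405 lower.

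Penk, of the 9 the gene with the highest level per kb in these controls, had lower values in the heterozygous libraries. It had 113, 112 and 113 CPM in the controls and 106, 92.0 and 96.9 CPM in the heterozygous libraries, lower in 3 of 3, as for 2630 of 16481 genes. The log2 fold change was -0.17 (SE 0.05, edgeR adjusted p = 0.0451), which is under the fold threshold of 0.2. Without heterozygous 8 it was -0.22 (adjusted p = 0.00684) and with an offset for length and GC content -0.23 (adjusted p = 0.00821), past both thresholds, while over all 13 alternatives the adjusted p ran from 0.00684 to 0.506. Adora2a, Pde10a, Adcy5 and Drd2 had fold changes of 0.07, -0.03, 0.07 and -0.19 with edgeR adjusted p-values of 0.498 to 0.918. The call of Rgs9 held under all 13 alternatives (log2 fold change 0.80 to 1.01, adjusted p = 9.54e-05 to 0.0334), and that of Ppp1r1b was lost in a fit of all 12 cerebellum libraries (0.27, adjusted p = 0.263, over a range of 5.64e-07 to 0.263).

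Among other genes of these pathways in the same tissue, 3 of 22 tested medium spiny neuron genes were called higher and 1 lower by edgeR, beside the 2.37% and 2.72% of all genes. They were Pde1b, a calcium-activated phosphodiesterase (0.65, adjusted p = 0.00125), Foxp2 (0.40, adjusted p = 0.0444) and Ebf1 (0.25, adjusted p = 0.00677), transcription factor genes, and Pde7b, a cAMP phosphodiesterase (-0.40, adjusted p = 0.00507), and all but Foxp2 were also called by DESeq2. Of 32 tested dopamine and cAMP signalling genes, 1 was called higher and 5 lower, beside the same shares: Pde1b and Pde7b again, and Adcy1 (-0.31), Adcy8 (-0.40), Gnao1 (-0.26) and Pde4b (-0.35), which encode adenylyl cyclases, a G protein subunit and a phosphodiesterase. Under 13 alternatives the calls of Pde1b, Adcy1 and Adcy8 held, while 8 ended that of Foxp2 (without any single library but heterozygous 12, with DESeq2, with non-robust dispersions and in a fit of all 12 cerebellum libraries, adjusted p up to 0.282). The call of Ebf1 ended without control 9 and in the fit of all 12 (adjusted p up to 0.147), those of Pde7b and Gnao1 in that fit (0.0584 for both) and that of Pde4b without heterozygous 12 (0.0783). The medians of these lists were 0.19 and -0.06, against 0.01 over all genes tested.

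Some markers of other cells were called in the same libraries, where 2.37% of all genes were called higher and 2.72% lower. Choroid plexus genes were above 0 in 6 of 6 (median 0.57), and oligodendrocyte genes below 0 in 7 of 8 (median -0.09). Of either list, 0 were called by edgeR. Of 7 microglia genes, 6 were tested, all 6 with a log2 fold change above 0, beside 52.3% of all genes. Called higher by edgeR were 2 (Trem2 0.94, Csf1r 0.36). DESeq2 called these and C1qa, which had the largest fold change of the list (0.99, SE 0.25, edgeR adjusted p = 0.0953). The list, with Csf1r most abundant and none at 0 counts, summed to 72.2, 74.7 and 74.1 CPM in controls 7, 9 and 11 and 102, 87.1 and 109 CPM in heterozygous 8, 10 and 12. Of 7 cerebellar neuron genes, Pcp2 of Purkinje cells was called higher (0.20) and Gabra6 of granule cells lower (-0.25), and the list, with Calb1 most abundant and none at 0 counts, summed to 5318, 5720.0 and 5475 CPM in the controls and 5429, 5543 and 5254 CPM in the heterozygous libraries. Of 6 astrocyte genes, all tested, Aqp4 was called higher by edgeR (0.23), with 4 above and 2 below 0. All 6 had an unadjusted p under 0.05 in edgeR, as did 3338 of all 16481 genes. Gfap had 125, 111 and 119 CPM in the controls and 263, 194 and 313 CPM in the heterozygous libraries (1.15, SE 0.21, edgeR adjusted p = 0.0653), and DESeq2 called it. The astrocyte list, with Slc1a2 most abundant and none at 0 counts, summed to 2827, 2878 and 2784 CPM in the controls and 2833, 2893 and 2849 CPM in the heterozygous libraries. Of these calls, those of Trem2 and Csf1r held under all 13 alternatives, while that of Aqp4 ended without control 11 and in the fit of all 12 (adjusted p up to 0.0971). In 6 alternatives the call of Gabra6 ended (the fit of all 12, and without any single library but heterozygous 8, adjusted p up to 0.311), and in 6 that of Pcp2 (the fit of all 12, the offset, and without control 7, control 9, heterozygous 10 or heterozygous 12, adjusted p up to 0.615). The part of these cells in the values of Rgs9, Ppp1r1b and Penk was not tested.

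In cerebellum at 2 months, 6 of the 9 genes passed the filter and none was called by edgeR or by DESeq2. Of all 16208 genes tested, 0% were called by edgeR, 836 had an unadjusted p under 0.05, and DESeq2 called 44. Rgs9 had 1.75, 2.42 and 2.33 CPM in the controls and 1.96, 3.16 and 2.72 CPM in the heterozygous libraries (log2 fold change 0.27, SE 0.25, edgeR adjusted p = 0.881), and the groups overlapped. Penk had 143, 105 and 108 CPM in the controls and 95.4, 93.6 and 98.6 CPM in the heterozygous libraries, lower in 3 of 3, as for 1380 of 16208 genes. Its log2 fold change was -0.29 (SE 0.12, edgeR adjusted p = 0.881), and it was the 1 member with an unadjusted p under 0.05. Control 1 stood apart from its group at this age, with an SD of log2 deviations of 0.42 against 0.20 and 0.21 in controls 3 and 5, and had the highest Penk value. Without it the Penk fold change was -0.14 (edgeR adjusted p = 0.0733, in a range of 0.0733 to 0.999 over the alternatives) and 362 genes were called.

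The difference of the genotype effect between 5 and 2 months was tested over the 12 cerebellum libraries. None of the 7 genes that passed the filter had an unadjusted p under 0.05 in edgeR, and 0 of 16845 genes passed the adjusted threshold, with 646 at an unadjusted p under 0.05 (DESeq2 was not run on this term). For Rgs9 the difference was 0.62 on the log2 scale (SE 0.30, edgeR adjusted p = 0.922), so a change of its fold change with age was not shown. For Penk it was 0.12 (SE 0.14) and for Ppp1r1b 0.19 (SE 0.14), both with an adjusted p of 0.922.

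**Figure D5:**
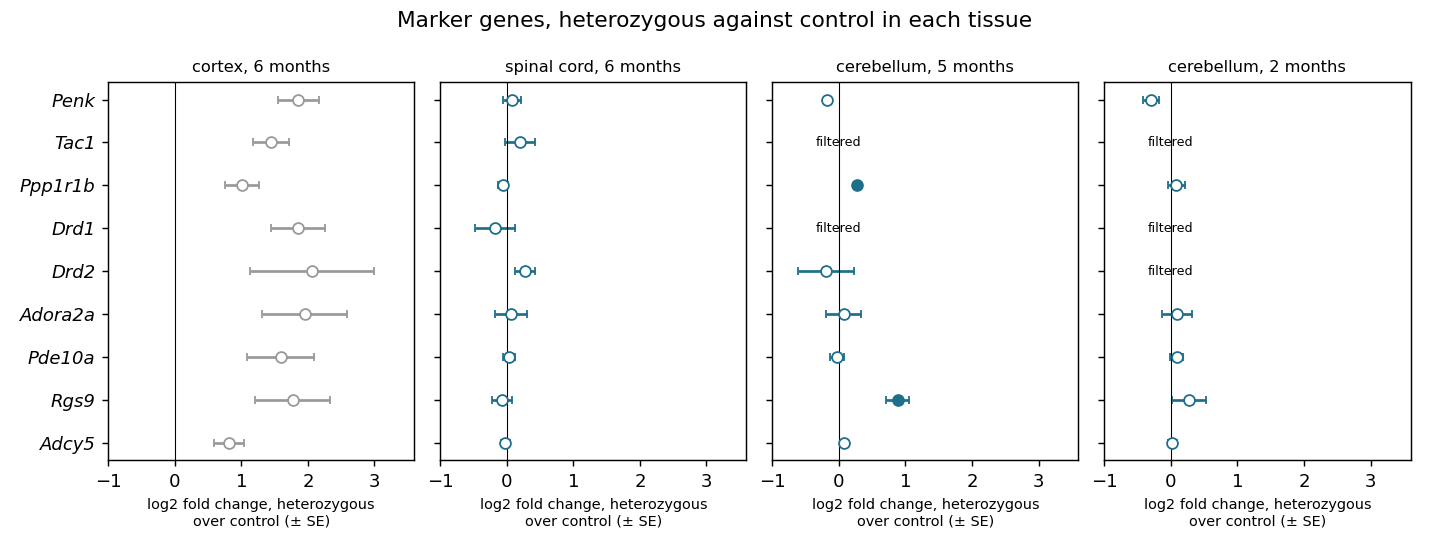
Log2 fold change, heterozygous over control, with its standard error as a bar, of each gene in the 4 comparisons of 3 control and 3 heterozygous libraries each. Filled points passed the thresholds (Rgs9 and Ppp1r1b in cerebellum at 5 months), grey points in cortex are descriptions, and genes below the count filter are marked.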

How the data were processed

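RNA-seq of 24 libraries was used. Per the submitters' processing notes, reads were trimmed with Trimmomatic 0.30, aligned with HISAT2 2.0.1 and counted with HTSeq 0.6.1. What the authors deposited are 2 tables of unnormalized counts for 46078 genes each. The HTSeq mode, strand setting and annotation release are not given in the sources used here. Positions and exon lengths came from GENCODE M21 on GRCm38 (45143 genes, 98.0%).

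Comparisons were fitted in edgeR 4.0.16 (R 4.3.3) with TMM scaling, filterByExpr (minimum count 10, minimum total 15), robust quasi-likelihood tests and p-values adjusted by Benjamini-Hochberg across every gene tested. A call needed an adjusted p below 0.05 and a log2 fold change beyond 0.2 in either direction. DESeq2 1.42.0 was an alternative, as were other scalings, filters and designs, leaving out each library and calling with no fold threshold. The last reused the main fit, so it could move no fold change and end no call. The code was tested on simulated data. Figures used Python 3.11.15 and matplotlib 3.10.9. Separate mice are stated for cerebellum at 5 months. For the other tissues and ages this is not given in the sources used here, so p-values there measure the spread between libraries, which may be technical. A test of control spinal cord against control cortex was planned, but for the 9 genes its values are given as a description, because the control cortex libraries entered their choice.

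The 18 gene lists, of which the 9 genes are 1, were chosen with earlier results of these data known. Genes were named by rule: the 9 genes, list members that were called or had the highest level of their list, and the 10 genes nearest in cortex profile, of which some are not reported here. Defining markers and a few genes outside the rule were named after their values were seen.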

Additional observations from a re-analysis of the deposited data

Results flagged for a closer look

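The Penk values of the genotypes lay on opposite sides in cortex and cerebellum. In cortex, where the values chose the gene, all 3 heterozygous libraries were above all 3 controls (log2 fold change 1.86). In cerebellum at 5 months all 3 were below (-0.17, under the fold threshold), as for 2630 of 16481 genes. At 2 months all 3 were below too (-0.29, edgeR adjusted p = 0.881), as for 1380 of 16208 genes, and the fold change was -0.14 without control 1. The fold change in cortex exceeded that in cerebellum by 2.03 on the log2 scale at 5 months and by 2.15 at 2 months. These differences were not tested, since the cortex contrast chose the genes and the tissues come from separate count tables.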

How the results depend on the processing

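In cortex the number of called genes was 6 in edgeR with the settings above, 138 with DESeq2, 108 with no filter on low counts, 104 when all 12 libraries of the table were fitted together, 50 with an offset for length and GC content, and 0 to 134 when each library was left out in turn. The median fold change of the 9 genes, a description, was 1.44 to 2.37 with a library left out.

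In spinal cord 19 genes were called, against 73 with DESeq2, 244 with no filter, 0 with non-robust dispersions, 0 in the joint fit, 10 with the offset and 0 to 643 when each library was left out, 643 being without heterozygous 1. In cerebellum at 5 months 839 genes were called, against 666 with DESeq2 and 225 in the joint fit. Leaving out each library gave 433 (without control 11) to 1022, with 550 without heterozygous 12. Of the 9 genes, 2 were called, with 1 in the joint fit. Penk gained a call in 3 of 13 alternatives, among them the same fit with no fold threshold. In cerebellum at 2 months 0 genes were called, against 44 with DESeq2, 26 with no filter, 47 in the joint fit, 14 with the offset and 0 to 362 when each library was left out, 362 being without control 1. The difference between ages gave 0 to 3 genes when each library was left out. The cause of these shifts was not tested.

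In cortex and spinal cord the same numbers, 1 to 3, name the libraries of either genotype. With the number as a replicate block, 8 genes were called in cortex and 43 in spinal cord. Deviations of same-numbered libraries correlated at -0.13, -0.01 and 0.04 in cortex and -0.04, 0.15 and -0.04 in spinal cord. Those of libraries with different numbers correlated at -0.13 to 0.10 in cortex and -0.13 to 0.14 in spinal cord. With so few libraries a group, these values cannot settle whether the numbers pair the libraries.

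Of 295 fold changes of the 9 genes between genotypes in spinal cord and cerebellum, recomputed under an alternative, 290 kept their call or, where neither value was called, moved by less than the SD between libraries. Of the others 1 moved further, 1 lost and 3 gained a call, and 0 called values changed sign. Calling with no fold threshold was among the alternatives and reused the main fit, so it could not move a fold change. Of 225 described fold changes (genotypes in cortex, and control spinal cord against control cortex), 218 moved by less than that SD and 7 by more, all 7 without control cortex 3. CPM over the total count in place of TMM scaling moved 3 of 72 group means by more than their SD. Depth limits Tac1, Drd1 and Drd2 in cerebellum, with 1 to 12 counts a library.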

Other observations

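Spinal cord control 1 held 32.9 CPM of Slc17a7, against 2.37 to 15.9 CPM in the other 5 spinal cord libraries. This glutamate transporter gene, listed here for cortical excitatory neurons, also passed the count filter in cerebellum. Spinal cord control 1 had the lowest Drd2 of the 6 (10.3 CPM) and the highest Drd1 (1.44 CPM), and the source of the Slc17a7 counts was not tested. In the cortex libraries, the activity-regulated genes summed to 1485, 1278 and 660.3 CPM in controls 1, 2 and 3 and to 1380 and 627 CPM in heterozygous 1 and 2 and 675 CPM in heterozygous 3, with control 3 the lowest control.

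Among lists outside striatal signalling, 2 of 7 microglia genes were called higher in spinal cord by edgeR (Trem2 0.71, C1qa 0.84), as was the activity-regulated gene Fosl2 (0.73), where 0.108% of all genes were called. Each of these 3 calls ended without any single library other than heterozygous 1, with non-robust dispersions and in a fit of all 12 libraries of the table, and that of C1qa also with the offset for length and GC content, with adjusted p-values up to 0.409 for Trem2, 0.309 for C1qa and 0.403 for Fosl2. DESeq2 called the same 3 genes and also Gfap and Fos (edgeR log2 fold changes 0.37 and 0.86), with 73 of all genes called. In cerebellum at 5 months the activity-regulated genes Arc (-0.49) and Egr4 (-0.89) were called lower by edgeR, while Aqp4 (0.23), Slc17a6 (0.37) and Cck (0.33) were called higher, where 2.72% of all genes were called lower and 2.37% higher. Of 13 alternatives, 6 ended the call of Egr4 (the fit of all 12 cerebellum libraries, and without any single library but heterozygous 8, adjusted p up to 0.109). The fit of all 12 also ended the other 4 calls, as did leaving out control 9 for Arc and Cck (adjusted p up to 0.0783 and 0.276) or control 11 for Aqp4 and Slc17a6 (up to 0.0971 and 0.0787). In cerebellum at 2 months edgeR called 0 of 138 tested list genes outside the 9, 19 had an unadjusted p under 0.05, and DESeq2 called 2, Dusp1 and Egr1. At 5 months DESeq2 called these 2 besides Arc and Egr4. Of 14 tested activity-regulated genes, 13 were below 0 at 5 months (median -0.44) and 12 at 2 months (median -0.28). Of all genes, 7862 of 16481 and 7810 of 16208 were below 0.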
